A study of Mus musculus with 12 samples.

Results

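The 6 genes described here are Tpx2, Hjurp, Traip, Plk5, Plk2 and Plk3, taken from 17579 genes with estimated counts in retinas and striata from R6/1 and wt mice. They were matched by symbol to GENCODE gene names, and all 6 were found and passed the filter on low counts in both tissues. The members were selected on the measured genotype differences: Tpx2 and Hjurp were called higher, and Traip and Plk5 lower, in R6/1 than in wt samples of both tissues, while Plk2 and Plk3 were taken as other polo-like kinases for contrast. The genotype differences of these genes are therefore given as a description, with no test, and support nothing.

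Untreated male R6/1 mice and wt littermates of the C57Bl/6 strain, aged 13 to 15 weeks, gave retinas and striata for RNA-seq. R6/1 mice carry a transgene with the promoter and first exon of human huntingtin holding an expanded CAG repeat, and they serve as a model of Huntington's disease (HD); the transgene itself was not analysed here. Each of the 4 groups (either genotype in either tissue) had 3 libraries, each made from pooled RNA of 3 to 4 animals, and every SD given here is taken over such pools. Retina and striatum came from the same animals.

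Libraries of wt retinas held 14070445 to 18661772 counts and those of wt striata 17206379 to 20159277, against 17024353 to 17926885 (retinas) and 15885261 to 22432431 (striata) for R6/1 mice. The tissue labels were matched by markers, since 12 rod photoreceptor genes summed to 65648 to 73628 CPM (counts of a gene scaled to library size) in wt retinas and to 4.78 to 8.23 CPM in striata, with Cnga1 and Nr2e3 at 0 there. Of 12 genes of the oligodendrocyte lineage, Mobp, Mog, Olig1 and Olig2 were at 0 in the retinas. The 12 summed to 62.3 to 70.5 CPM in wt and 75.8 to 79.5 CPM in R6/1 retinas, against 6818 to 7601 CPM in wt striata. Replicate 2 of the wt striata stood apart. Its mean Spearman correlation was 0.992 with the other wt striata and 0.994 with the R6/1 striata, whereas wt striatum 1 gave 0.994 and 0.989. R6/1 striatum 2 stood apart from its group as well. Between the counts of 2 libraries, chi-square per degree of freedom was 16.6 and 15.3 for it against R6/1 striata 1 and 3. Between R6/1 striata 1 and 3 it was 4.33. For wt striatum 2 the values were 17.2 and 19.4, and wt striata 1 and 3 gave 7.53. Fold changes that rest on wt striatum 2 are given with and without it.

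These genes are best known from dividing cells. TPX2 binds microtubules and activates the kinase Aurora A during spindle assembly, HJURP is the chaperone that places the histone variant CENP-A at centromeres, and TRAIP is a ubiquitin ligase that acts at stalled or converging replication forks. Polo-like kinases share a C-terminal polo-box region, and PLK1 and PLK4 drive mitosis and centriole duplication, whereas PLK2 and PLK3 are encoded by inducible genes and PLK2 acts at synapses in neurons. PLK5 is a member of the family known from brain and lacks kinase activity. The neurons of adult retina and striatum do not divide.

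In GRCm38, Tpx2 (ENSMUSG00000027469) lies on the plus strand at chr2:152847964-152895321 and Hjurp (ENSMUSG00000044783) on the minus strand at chr1:88262471-88277633. Traip (ENSMUSG00000032586) lies at chr9:107950136-107972270 and Plk5 (ENSMUSG00000035486) at chr10:80356459-80365489, both on the plus strand. Plk2 (ENSMUSG00000021701) lies on the plus strand at chr13:110395046-110400844 and Plk3 (ENSMUSG00000028680) on the minus strand at chr4:117128655-117133963. All 6 are annotated as protein coding. Exons of Plk3 share 84 bases with Tctex1d4 on the opposite strand, a gene that is also in the table, and the libraries were stranded. No exon of the other 5 genes shares bases with another gene.

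The 250 bases before the RefSeq start (GRCm38.p6) are shown for the members with a promoter sequence. A member that was higher can so be set beside those that were lower and beside the inducible kinases. The RefSeq start is not always that of the GENCODE gene. The Traip window lies inside the GENCODE gene given above, and the Hjurp window overlaps its GENCODE gene in part. Each is written 5′ to 3′ on the strand of its gene, and capitals mark CCAAT or TGACG, or their reverse complement. Hjurp at chr1:88277580-88277829 (minus strand), Traip at chr9:107950713-107950962, Plk5 at chr10:80356209-80356458, Plk2 at chr13:110394794-110395043 and Plk3 at chr4:117133964-117134213 (minus strand) read as follows.
Hjurp: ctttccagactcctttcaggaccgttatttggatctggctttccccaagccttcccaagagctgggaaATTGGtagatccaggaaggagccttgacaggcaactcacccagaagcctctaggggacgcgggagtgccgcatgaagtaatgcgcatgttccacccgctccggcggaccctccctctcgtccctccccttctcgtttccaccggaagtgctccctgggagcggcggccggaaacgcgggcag
Traip: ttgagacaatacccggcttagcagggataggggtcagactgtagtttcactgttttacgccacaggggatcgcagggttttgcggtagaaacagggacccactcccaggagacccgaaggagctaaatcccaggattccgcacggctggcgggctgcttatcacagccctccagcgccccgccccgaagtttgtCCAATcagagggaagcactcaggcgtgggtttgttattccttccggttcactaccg
Plk5: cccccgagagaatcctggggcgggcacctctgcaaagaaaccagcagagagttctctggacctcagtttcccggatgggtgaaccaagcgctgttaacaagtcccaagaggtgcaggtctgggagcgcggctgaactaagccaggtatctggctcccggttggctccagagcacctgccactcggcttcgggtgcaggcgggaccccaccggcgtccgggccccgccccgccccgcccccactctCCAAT
Plk2: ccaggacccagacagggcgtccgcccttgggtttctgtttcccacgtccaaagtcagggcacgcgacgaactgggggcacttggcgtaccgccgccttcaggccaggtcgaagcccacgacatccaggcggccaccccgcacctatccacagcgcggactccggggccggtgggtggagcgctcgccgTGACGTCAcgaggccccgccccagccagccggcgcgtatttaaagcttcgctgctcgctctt
Plk3: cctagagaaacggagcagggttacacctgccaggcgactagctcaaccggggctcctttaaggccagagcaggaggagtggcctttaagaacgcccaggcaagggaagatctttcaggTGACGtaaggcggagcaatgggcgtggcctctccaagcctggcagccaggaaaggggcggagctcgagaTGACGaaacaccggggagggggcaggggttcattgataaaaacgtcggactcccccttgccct

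Words for 4 motifs were sought on both strands from 250 bases before to 50 bases after the start, in these 5 promoters and in 32851 RefSeq promoters of the same length. The cell cycle homology region word TTTGAA stood in Hjurp and in Traip, at positions 20 and 23 counted from the start and outside the letters printed, and 17.9% of all promoters held it. CCAAT stood in Hjurp (on the opposite strand), Traip and Plk5, against 37.4% of all promoters. The Plk5 match filled the last bases before the start. TGACG, the core of a cAMP response site, stood in Plk2 and Plk3, against 20.8% of all promoters. In Plk2 matches on opposite strands overlapped and formed the palindrome TGACGTCA. The E2F site was sought as TTCCCGC, with the further spelling TTGGCGC, then also as TTCGCGC, and lastly as TTGCCGC. None of these stood in any of the 5, and 9.57% of all promoters held at least one of them. Hjurp, which was higher in R6/1 samples, and Traip, which was lower, thus held the same pair of words. These matches are descriptions of letters and not of bound sites.

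Tpx2 was measured at low counts and was higher in R6/1 mice. Its level was 1.41, 2.12 and 2.02 CPM in the wt retinas and 3.33, 3.81 and 3.38 CPM in the R6/1 retinas. In the striata it was 3.17, 4.78 and 2.95 CPM in wt and 9.24, 7.18 and 7.64 CPM in R6/1. Every R6/1 library was above every wt library of its tissue, and the highest wt striatum was replicate 2. The log2 fold change of R6/1 against wt was 0.95 ± 0.22 (SE) in the retina and 1.13 ± 0.21 in the striatum, or 1.39 without wt striatum 2. These levels rested on 86 summed counts in the wt retinas and 455 in the R6/1 striata. As in all results from bulk tissue, a change in cell numbers and one in RNA per cell cannot be told apart.

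Hjurp was also higher in R6/1 mice and rested on more counts, with 2346 to 5913 summed counts per group. It was at 52.6, 48.0 and 50.8 CPM in the wt retinas and at 66.2, 71.7 and 67.1 CPM in the R6/1 retinas. The wt striata gave 62.4, 82.0 and 69.3 CPM and the R6/1 striata 102, 107 and 97.8 CPM. Genotypes did not overlap in either tissue, and wt striatum 2 was again the wt library nearest to the R6/1 striata. The log2 fold change was 0.47 ± 0.07 in the retina and 0.52 ± 0.10 in the striatum (0.64 without wt striatum 2), which made it the smallest genotype difference among the 4 genes called in both tissues.

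Traip was lower in R6/1 mice. Its level was 11.9, 9.80 and 13.2 CPM in the wt retinas and 3.71, 4.17 and 4.54 CPM in the R6/1 retinas. In the striata it was 32.4, 25.9 and 29.5 CPM in wt and 12.2, 11.5 and 14.2 CPM in R6/1. The highest R6/1 library was well below the lowest wt library in both tissues, and the 3 R6/1 striata reached the level of the wt retinas. The log2 fold change was −1.46 ± 0.15 in the retina and −1.21 ± 0.12 in the striatum (−1.29 without wt striatum 2).

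Plk5 had its highest level in the wt retinas, at 83.3, 90.8 and 79.1 CPM, and was at 51.3, 43.1 and 43.4 CPM in the R6/1 retinas. The wt striata held 11.2, 5.55 and 11.3 CPM and the R6/1 striata 3.53, 3.14 and 2.64 CPM. Genotypes did not overlap, although wt striatum 2 was much lower than the other wt striata. The log2 fold change was −0.85 ± 0.08 in the retina and −1.59 ± 0.29 in the striatum, and −1.85 in the striatum without wt striatum 2.

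**Figure D1:**
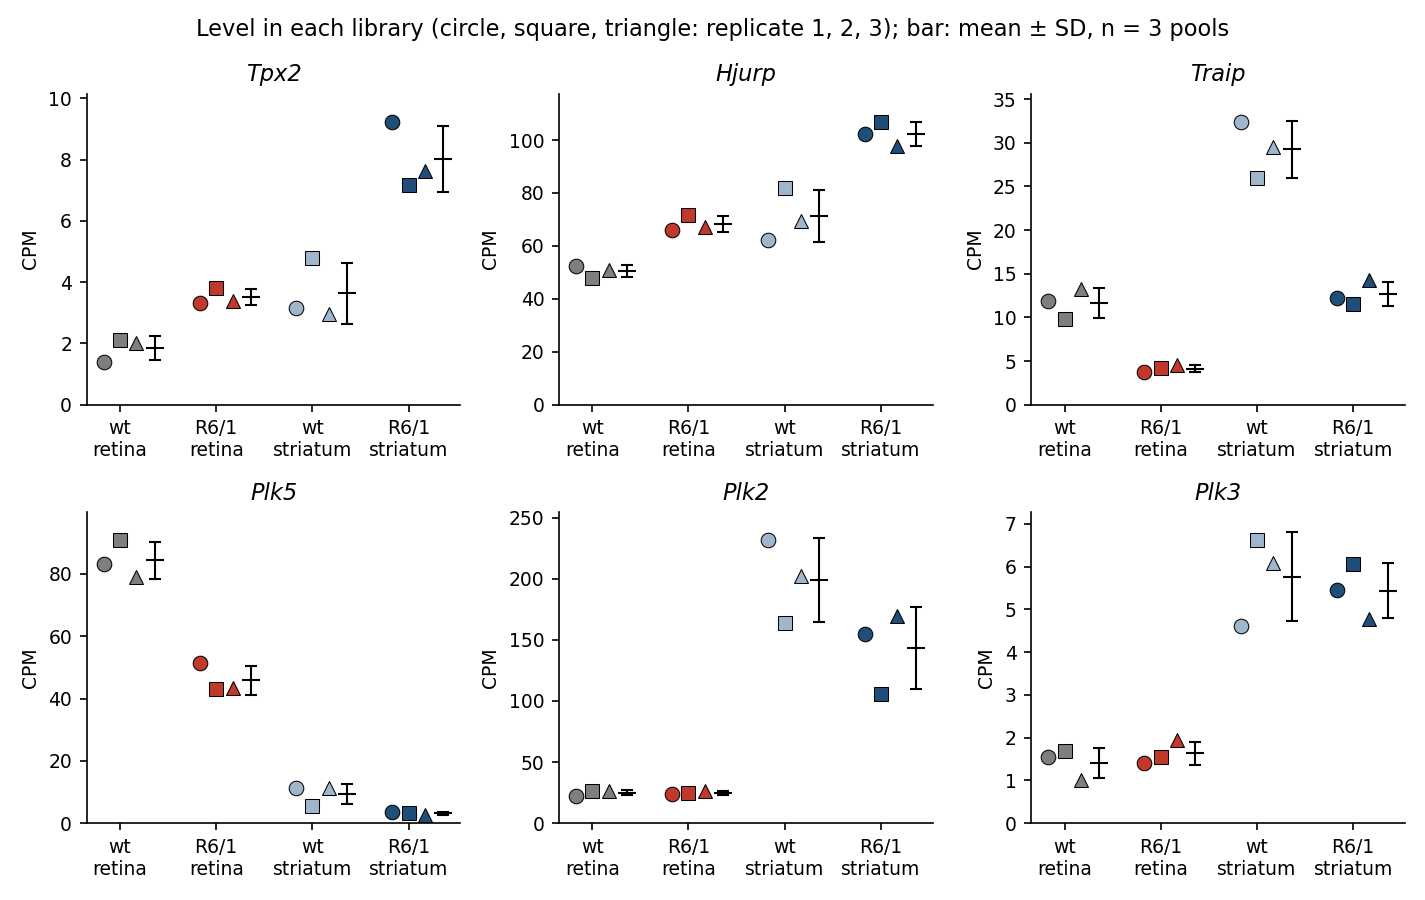
Level of each of the 6 genes in every library, in CPM on linear axes that start at 0, by tissue and genotype. Symbols stand for replicates 1, 2 and 3, and the bar gives the mean ± SD of 3 pools. Genotypes do not overlap for Tpx2, Hjurp, Traip and Plk5, and they overlap for Plk2 and Plk3 in both tissues.

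Plk2 and Plk3, the inducible kinases, did not show this separation. Plk2 was at 22.6, 26.4 and 26.0 CPM in the wt retinas and at 23.6, 24.4 and 26.3 CPM in the R6/1 retinas. The wt striata gave 231, 164 and 202 CPM and the R6/1 striata 155, 106 and 169 CPM. Genotypes overlapped in both tissues, and in each genotype the striatum numbered 2 was the lowest. The log2 fold change was 0.02 ± 0.09 in the retina and −0.47 ± 0.20 in the striatum (−0.60 without wt striatum 2). With a library left out it ranged from −0.05 (without wt retina 1) to 0.06 (without wt retina 2) in the retina, and from −0.61 to −0.29 in the striatum, the latter without R6/1 striatum 2. With replicate number as a block, Plk2 was among the 9.94% of genes called in the striatum.

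Plk3 was scarce, at 1.54, 1.68 and 1.01 CPM in the wt retinas and 1.42, 1.54 and 1.94 CPM in the R6/1 retinas. The wt striata held 4.60, 6.62 and 6.08 CPM and the R6/1 striata 5.45, 6.07 and 4.78 CPM. The genotypes overlapped in both tissues. The log2 fold change was 0.25 ± 0.29 in the retina and −0.09 ± 0.18 in the striatum, where its sign turned without wt striatum 2 (0.03). In the retina it was 0.05 without wt retina 3, 0.12 without R6/1 retina 3 and 0.39 without wt retina 2, and in the striatum it reached −0.22 without wt striatum 1.

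The choice of these genes used calls at an adjusted p under 0.05 in edgeR, which 9.58% of the genes tested passed as higher and 12.7% as lower in the retina, and 0.132% as higher and 1.32% as lower in the striatum. Higher in both tissues were 7 genes (0.0445%), and lower in both were 62 (0.394%). The adjusted p nearest to the threshold was 0.0450 for Plk5 in the striatum, just inside it, and 0.257 for Plk2 in the striatum, outside it. Genotypes did not overlap in CPM for 38.4% of genes in the retina and 25.6% in the striatum.

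The striatal calls depended on single libraries. In the retina all 4 genes were called with any library left out. Since such calls chose the 4 genes, this describes the fits and is no support. In the striatum all 4 were called without wt striatum 2, but none without wt striatum 1, wt striatum 3 or R6/1 striatum 1. Tpx2 and Traip were called without R6/1 striatum 2, and Traip alone without R6/1 striatum 3. The fold changes kept their direction, and in the 6 striatal fits with a library left out, Tpx2 ranged from 1.00 to 1.39, Hjurp from 0.44 to 0.64, Traip from −1.30 to −1.13 and Plk5 from −1.85 to −1.43 on the log2 scale.

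**Figure D2:**
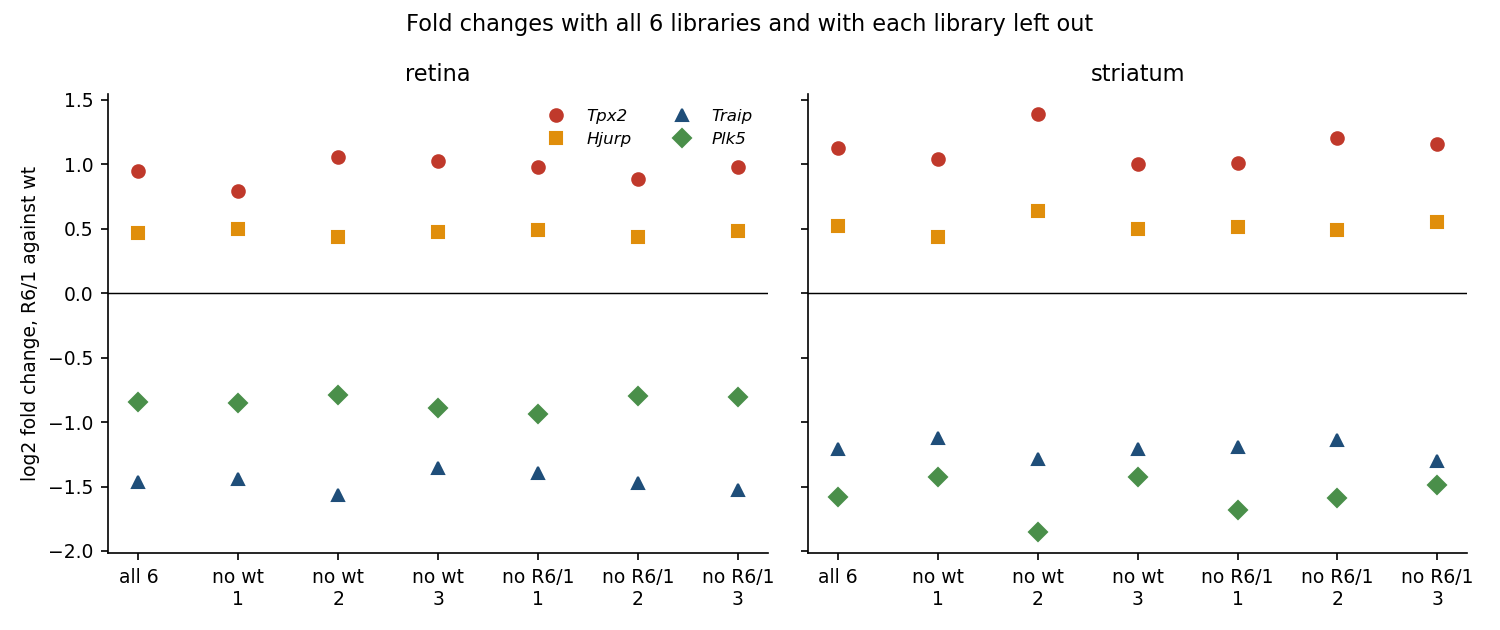
Log2 fold change of R6/1 against wt for Tpx2, Hjurp, Traip and Plk5 with all 6 libraries of a tissue and with each library left out, in the retina (left) and the striatum (right). Points are fitted values without error bars, and the values spread most in the striatum when wt replicate 2 is left out, where Plk5 reaches −1.85.

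The log2 genotype effect in the retina minus that in the striatum was −0.21 ± 0.31 for Tpx2, −0.08 ± 0.12 for Hjurp, −0.29 ± 0.19 for Traip, 0.70 ± 0.31 for Plk5, 0.46 ± 0.25 for Plk2 and 0.31 ± 0.32 for Plk3. Over all genes 8.24% were called for this difference, 3.38% higher and 4.86% lower. The members' values share their samples with the choice of the genes and are not tested. Without wt striatum 2 they were −0.47 for Tpx2, −0.20 for Hjurp, −0.21 for Traip, 0.98 for Plk5, 0.58 for Plk2 and 0.20 for Plk3. Over the 12 fits with a library left out, they ranged from −0.47 to −0.08 for Tpx2 (lowest without wt striatum 2, highest without wt striatum 3) and from −0.20 to 0.00 for Hjurp, whose sign turned without wt striatum 1. The range was −0.39 to −0.18 for Traip (highest without wt retina 3), 0.54 to 0.98 for Plk5, 0.28 to 0.60 for Plk2 (lowest without R6/1 striatum 2) and 0.11 to 0.45 for Plk3 (lowest without wt retina 3).

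**Figure D3:**
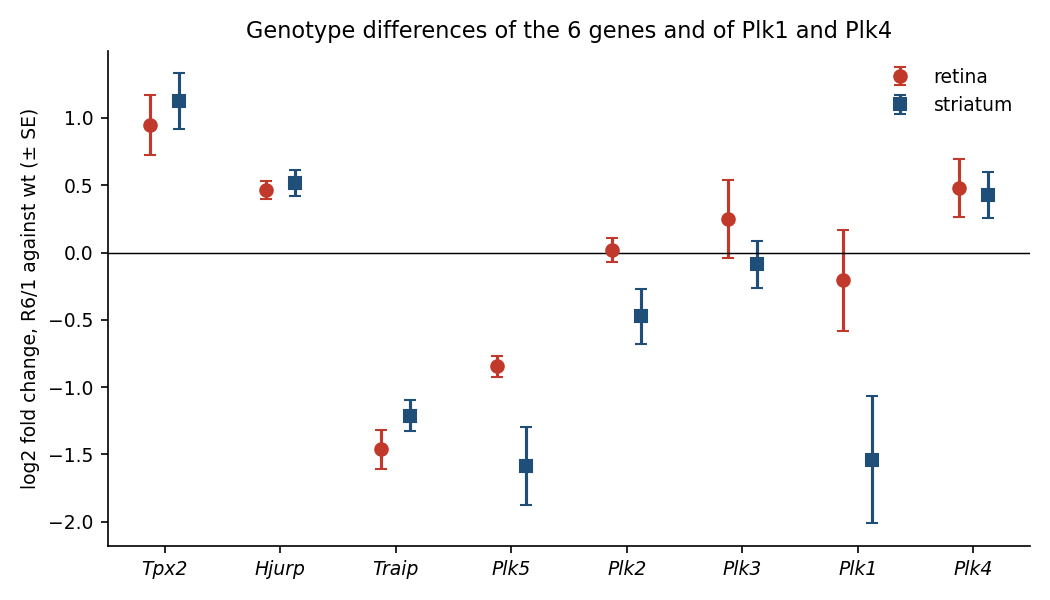
Log2 fold change of R6/1 against wt (± SE, n = 3 pools per group) for the 6 genes and for Plk1 and Plk4, in the retina (circles) and the striatum (squares). Tpx2 and Hjurp lie above 0 and Traip and Plk5 below 0 in both tissues, and the SE of Plk1 is the widest.

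Cell type markers moved with genotype in both tissues. In the retina, all 12 rod genes fell in R6/1 mice, and their sum was 20835 to 29069 CPM. Microglial genes rose (8 of 12, and 5 by DESeq2), from sums of 51.9 to 53.2 CPM in wt to 73.7 to 84.3 CPM in R6/1 retinas. In the striatum, genes of medium spiny neurons, the main striatal neurons, summed to 6653, 4772 and 5388 CPM in wt striata 1, 2 and 3. In R6/1 striata 1, 2 and 3 they summed to 2856, 1556 and 2814 CPM. Of these 12 genes edgeR called 1 lower, DESeq2 9 and the replicate block 10. The same 12 genes summed to 996 to 1075 CPM in wt and 688 to 742 CPM in R6/1 retinas, where edgeR called 5 lower. Microglial sums in the striata were 482 to 525 CPM in wt and 440 to 479 CPM in R6/1 mice, with none of 12 called by edgeR, DESeq2 or the block and 2 of 12 at an unadjusted p under 0.05 in edgeR. Genes of cortical excitatory neurons summed to 1264, 728 and 1446 CPM in wt striata 1, 2 and 3 and to 634 to 757 CPM in R6/1 striata, so that wt striatum 2 lay among the R6/1 libraries. In the striatum none of 10 was called by edgeR (2 at an unadjusted p under 0.05), and DESeq2 and the block called 1 each. In the retinas these genes summed to 1502 to 1539 CPM in wt and 1170 to 1266 CPM in R6/1 mice. There edgeR called 4 of 9 lower, and 1 with library totals. Red blood cell genes were lower in R6/1 mice in both tissues, with sums of 19.8 to 31.6 against 40.7 to 58.2 CPM in the retina (3 of 5 fell) and 83.4 to 96.4 against 124 to 164 CPM in the striatum (2 of 5 fell, 4 by DESeq2 and 3 with the block). The part of these shifts in the levels of the 6 genes was not tested.

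The comparison of tissues was not used to choose the genes, and it was tested within each genotype. Of the genes tested, 76.3% differed between wt retina and wt striatum and 73.2% between R6/1 retina and R6/1 striatum, and the calls of all 6 members are to be read against that background. In the striatum 5 members were higher (38.5% of all genes in wt and 36.9% in R6/1 mice), and in the retina Plk5 was (37.8% and 36.3%). The calls held in each of the 168 alternative fits of these differences.

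Plk5 had the widest difference in favour of the retina, by 3.19 ± 0.24 on the log2 scale in wt (adjusted p = 1.61e-05) and 3.90 ± 0.13 in R6/1 mice (adjusted p = 1.47e-09). Plk2 was higher in the striatum, with a retina minus striatum difference of −2.99 ± 0.13 in wt (adjusted p = 2.32e-08) and −2.52 ± 0.19 in R6/1 mice (adjusted p = 1.84e-05). Plk3 was likewise higher in the striatum, by −2.05 ± 0.24 in wt (adjusted p = 1.18e-05) and −1.72 ± 0.21 in R6/1 mice (adjusted p = 2.66e-05). The 3 polo-like kinases thus divided the tissues, with Plk5 on the retinal side and Plk2 and Plk3 on the striatal side.

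Traip was higher in the striatum, by −1.32 ± 0.12 in wt (adjusted p = 1.53e-06) and −1.60 ± 0.14 in R6/1 mice (adjusted p = 2.65e-06). The difference for Tpx2 was −0.98 ± 0.26 in wt (adjusted p = 0.00536) and −1.18 ± 0.16 in R6/1 mice (adjusted p = 6.9e-05). Hjurp differed least, by −0.50 ± 0.10 in wt (adjusted p = 0.000611) and −0.57 ± 0.06 in R6/1 mice (adjusted p = 1.47e-05). Without wt striatum 2 the wt values were −0.72 for Tpx2, −0.39 for Hjurp, −1.40 for Traip, 2.90 for Plk5, −3.11 for Plk2 and −1.94 for Plk3.

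**Figure D4:**
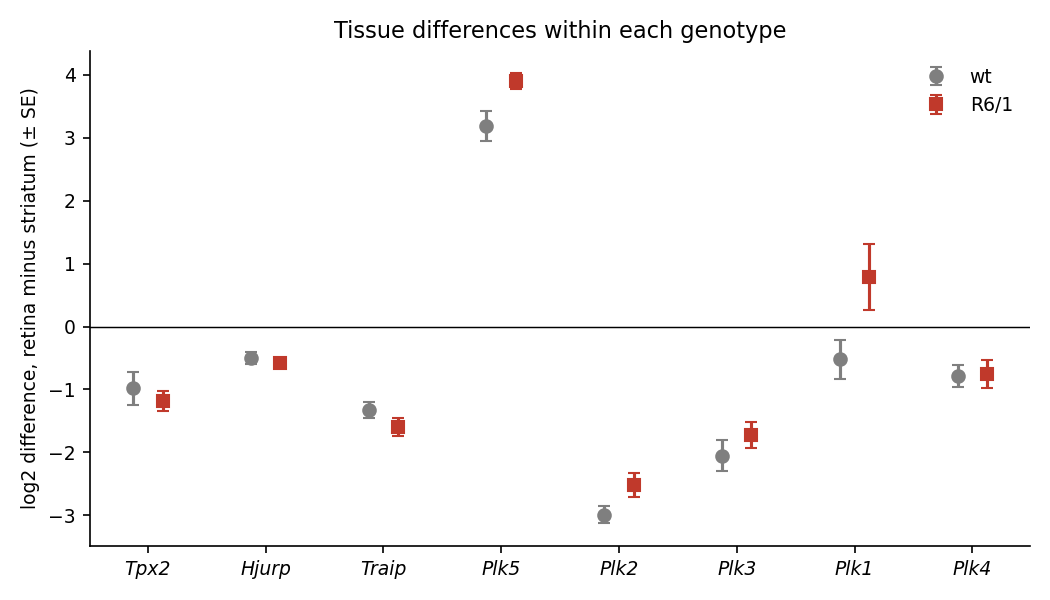
Log2 difference of retina minus striatum (± SE, n = 3 pools per group) within wt mice (circles) and within R6/1 mice (squares), for the 6 genes and for Plk1 and Plk4. Plk5 lies above 3 in both genotypes, Plk2 below −2.5, and Tpx2, Hjurp, Traip and Plk3 lie below 0.

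The order of the 4 groups differed among the genes. For Tpx2 and Hjurp it was R6/1 striatum, then wt striatum and R6/1 retina, which overlapped, then wt retina. Traip had wt striatum first, then R6/1 striatum and wt retina, which overlapped, then R6/1 retina. Plk5 was highest in wt retina, followed by R6/1 retina, then by wt striatum and last by R6/1 striatum, with no overlap between neighbours. Plk2 and Plk3 were above both retinal groups in both striatal groups, and genotypes overlapped within a tissue.

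Levels of different genes are compared only per kilobase of exon. In wt retinas Plk5 led the 5 polo-like kinases with 31.5 ± 2.22 CPM per kb (SD, n = 3), ahead of Plk2 at 5.57 ± 0.46 CPM per kb, while Plk3, Plk4 and Plk1 were at 0.557, 0.554 and 0.444 CPM per kb. In wt striata Plk2 led with 44.3 ± 7.58 CPM per kb, Plk5 had 3.49 ± 1.23 and Plk3 2.28 ± 0.41 CPM per kb. R6/1 mice kept Plk5 first in the retina (17.1 ± 1.74 CPM per kb) and Plk2 first in the striatum (31.9 ± 7.40 CPM per kb), but Plk5 in the R6/1 striata was at 1.16 ± 0.17 CPM per kb, below Plk3 at 2.15 ± 0.25 CPM per kb. Among the other genes in wt striata, Hjurp had 8.55 ± 1.20, Traip 4.66 ± 0.52 and Tpx2 0.777 ± 0.214 CPM per kb.

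The other polo-like kinases, which were no ground for the choice, did not pass the genotype test without the block at TMM scaling. Plk1, the mitotic kinase, was at 0.80, 1.17 and 0.95 CPM in wt and 1.09, 0.77 and 0.61 CPM in R6/1 retinas. Wt striata held 1.55, 1.17 and 1.47 CPM and R6/1 striata 0.31, 0.26 and 0.88 CPM, with no overlap between genotypes. Its log2 fold change was −0.21 ± 0.38 in the retina (adjusted p = 0.750) and −1.54 ± 0.47 in the striatum (adjusted p = 0.127), on 73 summed counts in wt and 27 in R6/1 striata. Without wt striatum 2 the striatal value was −1.65 (adjusted p = 0.0766), and with the replicate block −1.60 (adjusted p = 0.0396). Plk4, the centriole kinase, had log2 fold changes of 0.48 ± 0.22 in the retina (adjusted p = 0.131) and 0.43 ± 0.17 in the striatum (adjusted p = 0.208; 0.39 without wt striatum 2), and it was called in the retina with library totals. Of the 5 kinases, 1 was called in the striatum, namely Plk5, and with replicate number as a block 3 were (Plk1, Plk2 and Plk5, all lower), a fit in which 7.11% of all genes were called lower. Plk4 was higher in the striatum than in the retina, by −0.78 ± 0.18 in wt (adjusted p = 0.00200) and −0.75 ± 0.22 in R6/1 mice (adjusted p = 0.0123).

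Of the direct partners of TPX2 and HJURP, the gene of the first did not pass the test and that of the second fell in the retina. Aurka, which encodes Aurora A, had log2 fold changes of 0.19 ± 0.30 in the retina (adjusted p = 0.705) and 0.08 ± 0.37 in the striatum (adjusted p = 0.932; −0.10 without wt striatum 2). Cenpa, which encodes the histone that HJURP deposits, fell in the retina, where wt pools averaged 5.78 ± 1.06 CPM and R6/1 pools 2.86 ± 0.45 CPM (−0.98 ± 0.19 on the log2 scale, adjusted p = 0.00138). Striatal Cenpa stood at 1.56 ± 0.32 CPM (wt) and 1.88 ± 0.49 CPM (R6/1), a log2 fold change of 0.26 ± 0.29 (adjusted p = 0.665; 0.11 without wt striatum 2).

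Few genes of the wider proliferation lists were called. Without the members, 4 lists (polo-like kinases, spindle assembly and mitosis, centromere, and replication fork) held 149 genes tested in the retina, of which 22 (14.8%) were called, 8 higher and 14 lower, against 22.3% of all genes. Their median log2 fold change was 0.06, and that of all genes 0.01. In the striatum 1 of 152 was called (0.658%, against 1.45% of all genes), with a median of 0.08 against 0.01. DESeq2 also called 1 in the striatum, and the block called 6, 3 in each direction. Scaling by library totals, under which the median gene stood at 0.13 (retina) and 0.12 (striatum), called 44 in the retina, 33 of them higher, and 3 in the striatum, 2 of them higher. The directions of these lists thus depended on the scaling. Under library totals the calls over all genes also turned, to 3886 higher and 1445 lower in the retina (1588 and 2103 with TMM) and to 220 and 209 in the striatum (22 and 220 with TMM).

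Among spindle and mitosis genes, 12 of 61 (19.7%) were called in the retina, against 22.3% of all genes. The median log2 fold change of the list was 0.07, against 0.01 for all genes. Of the genes called, 4 were higher and 8 lower, whereas library totals gave 11 higher and 6 lower. Those with the smallest p were lower, namely Spc25, of the kinetochore NDC80 complex (146 ± 11.8 to 80.8 ± 5.16 CPM), the cyclin gene Ccna2 (48.9 ± 3.31 to 19.6 ± 3.18 CPM), Kpna2, whose importin binds TPX2 (363 ± 26.0 to 174 ± 23.4 CPM), and the checkpoint gene Mad2l1 (35.3 ± 1.80 to 22.1 ± 0.98 CPM). Their log2 fold changes were −0.83 ± 0.07 (adjusted p = 2.98e-07), −1.29 ± 0.10 (adjusted p = 3.48e-07), −1.03 ± 0.09 (adjusted p = 8.95e-06) and −0.65 ± 0.08 (adjusted p = 1.40e-05). Tpx2 was thus higher in R6/1 retinas in which these genes of the same list fell, while 4 other called genes of the list rose. In the striatum edgeR called none of 63, and 8 had an unadjusted p under 0.05; DESeq2 called none, and the block called 1.

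Of 38 centromere genes other than Hjurp, 5 (13.2%) were called in the retina, against 22.3% of all genes. Of these 5, 4 were higher. With library totals, under which the median gene stood at 0.13, 10 of 11 were higher. Dsn1, of the MIS12 kinetochore complex, rose (log2 fold change 1.00 ± 0.24, adjusted p = 0.00570), as did Cenpb, which binds centromeric repeats (0.31 ± 0.08, adjusted p = 0.00691). In the striatum edgeR called none of 38, with 10 at an unadjusted p under 0.05, DESeq2 and the block called none either, and library totals called 2.

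Of 48 replication fork genes and TRAIP partners, 5 (10.4%) were called lower and none higher in the retina, against 22.3% of all genes. With library totals 11 were higher and 4 lower. The genes called with TMM scaling included Tnfaip3, whose ubiquitin-editing product limits NF-kappaB signalling (−0.55 ± 0.07, adjusted p = 1.28e-05), and the replication initiation gene Mcm10 (−1.43 ± 0.18, adjusted p = 2.10e-05). In the striatum 1 of 49 was called, the clamp loader gene Rfc5 (8.65 ± 0.97 to 4.84 ± 0.52 CPM, log2 fold change −0.84 ± 0.15, adjusted p = 0.0355). The Rfc5 call was lost without any striatal library except wt replicate 2 (adjusted p up to 0.192), without which the value was −0.93.

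**Figure D5:**
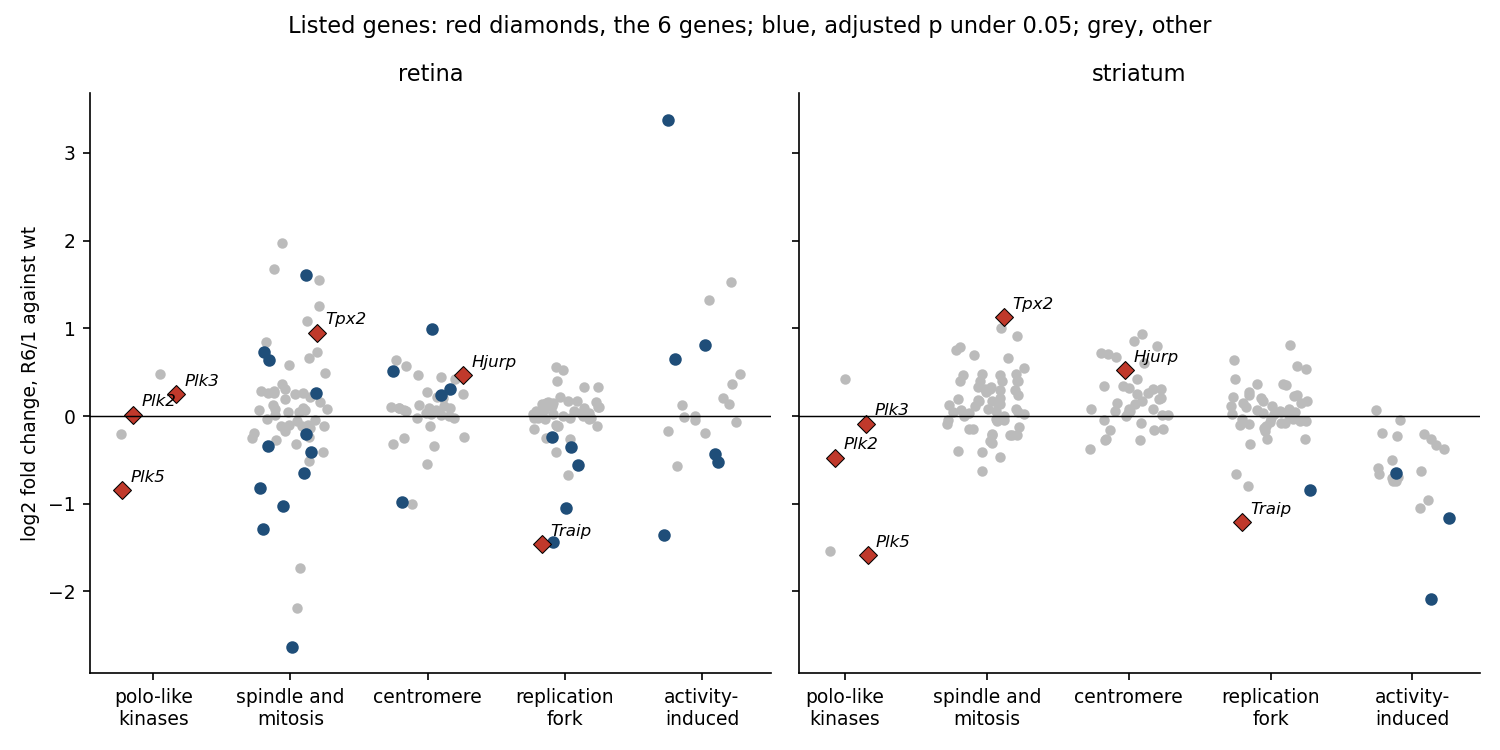
Log2 fold change of R6/1 against wt for every tested gene of 5 lists, in the retina (left) and the striatum (right). Each point is a gene; red diamonds are the 6 genes, blue points have an adjusted p under 0.05 and grey points do not, and horizontal scatter has no meaning. In the striatum 1 blue point lies among the first 4 lists, Rfc5.

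Because Plk2 and Plk3 are inducible, 21 genes induced by neuronal activity were set beside them. In the striatum 3 of 21 (14.3%) fell and none rose, against 1.32% of all genes lower and 0.132% higher. The median log2 fold change was −0.63, against 0.01 for all genes. DESeq2 called 8 of the 21 lower (805 of all 16728 genes), and the block called 10 lower (7.11% of all genes). The 3 were the transcription factor gene Egr2 (6.88 ± 1.37 to 1.63 ± 0.64 CPM; −2.08 ± 0.27, adjusted p = 0.0150), the postsynaptic scaffold gene Homer1 (319 ± 63.5 to 143 ± 24.2 CPM; −1.16 ± 0.19, adjusted p = 0.0412) and the phosphatase gene Dusp6 (35.6 ± 4.92 to 22.7 ± 2.83 CPM; −0.65 ± 0.13, adjusted p = 0.0475). All 3 calls were lost without wt striatum 1, wt striatum 3 or R6/1 striatum 1, those of Homer1 and Dusp6 also without R6/1 striatum 3, and that of Dusp6 also without R6/1 striatum 2 (adjusted p up to 0.0935, 0.173 and 0.233). The Dusp6 call was lost with library totals and with DESeq2 size factors too. Without wt striatum 2 the values were −2.06 for Egr2, −1.31 for Homer1 and −0.74 for Dusp6. In the retina 6 of 20 (30.0%) were called, against 22.3% of all genes. These were 3 in each direction (7 higher and 2 lower with library totals), with a list median of 0.06. Jun (0.81 ± 0.08, adjusted p = 1.38e-06) and Junb (0.65 ± 0.15, adjusted p = 0.00354) rose, while Npas4 (−1.35 ± 0.24, adjusted p = 0.000750) and Ier3 (−0.43 ± 0.11, adjusted p = 0.0107) fell. The call of Ier3 was lost without wt retina 1 (adjusted p up to 0.0507) and that of Junb in 1 fit of all 12 libraries (adjusted p = 0.0536).

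Of 10 listed synaptic partners of PLK2, 1 was called in the retina. This was Dlg4, which encodes the scaffold PSD-95 (726 ± 41.4 to 420 ± 15.7 CPM, log2 fold change −0.76 ± 0.07, adjusted p = 3.16e-07). In the striatum edgeR called none, with 4 at an unadjusted p under 0.05, DESeq2 called 2 and the block called 3, all lower. Of the 10, 8 differed between tissues in wt mice, against 76.3% of all genes. Higher in the striatum were 7 of the 10, against 38.5% of all genes. In R6/1 mice all 10 differed, against 73.2% of all genes, and 9 were higher in the striatum, against 36.9%.

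Genes whose log2 CPM followed a member most closely over the 12 libraries were sought among 13787 genes. These correlations are descriptions, since both tissue and genotype are shared by all points. Nearest to Tpx2 were Fam219b (Pearson's r = 0.972), Hjurp (r = 0.958) and Sfmbt2 (r = 0.956), so that Hjurp was the only member among the 3 nearest genes of another. Hjurp itself was followed by Gprasp1 (r = 0.974), Gprasp2 (r = 0.968) and Castor2 (r = 0.961). Traip was followed by Ier5l (r = 0.980), Cacna2d3 (r = 0.977) and Hrh3 (r = 0.973). For Plk5 the nearest were Rab3ip (r = 0.994), Fsbp (r = 0.991) and Ovgp1 (r = 0.990). The nearest to Plk2 were Pde7b, Spata2l and Celf2 (each r = 0.998), and to Plk3 Palm2 (r = 0.988), Rapgef3 (r = 0.987) and Mlec (r = 0.986).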

How the data were processed

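RNA-seq of 12 libraries (stranded mRNA kit, pools of 3 to 4 mice) was used. The authors trimmed reads with Trimmomatic and mapped them to GRCm38/mm10 with Salmon, without stated versions, and deposited estimated counts per gene as whole numbers, not normalized. Groups came from the sample labels. The sources used here do not give how transcript estimates became whole numbers per gene. Symbols were matched with GENCODE M21 (17530 of 17579 genes).

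Genotypes within a tissue, tissues within a genotype and the difference of the genotype effects were each fitted separately, over the libraries compared, for genes whose counts summed to at least 10 over the libraries compared, by the quasi-likelihood test of edgeR 4.0.16 (R 4.3.3) with TMM factors and robust spread. Two-sided p-values were adjusted (Benjamini-Hochberg) across every gene in a fit, with a threshold of 0.05. CPM used TMM factors over the 12 libraries, and log2 CPM a prior count of 2. The scripts were tested on simulated data. P-values measure the spread between pools.

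The members and the gene lists were chosen with earlier results of these data known. Named were the members, Plk1, Plk4, Aurka, Cenpa, up to 4 genes of each function list with the smallest p per tissue, and the 3 genes most correlated with each member. Some results that this rule selects are not reported here. Cell type lists covered rods, medium spiny neurons, microglia, astrocytes and Müller glia, oligodendrocytes, cortical excitatory neurons, vessel cells (endothelium, pericytes) and red blood cells. Function lists were the 4 proliferation lists, cell cycle entry, p53 targets, activity-induced genes and PLK2 partners.

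Alternatives were DESeq2 1.42.0, library totals or the size factors of DESeq2 as scaling, filterByExpr or no filter, non-robust spread, replicate number as a block, 1 fit of all 12 libraries, an adjusted p under 0.01, and leaving out each library. With an arm of 2 libraries the fit pools the spread. Pairing was checked by correlating deviations from group means over 10445 genes. Equal numbers correlated at 0.274, 0.329 and 0.257 between wt and R6/1 striata, which came from different mice and for which the labels give no pairing. Of the unequal striatal pairs, wt striatum 1 with R6/1 striatum 3 gave 0.240, and the others were negative. Between R6/1 retinas and striata, whose RNA came from the same mice, equal numbers gave 0.242, 0.119 and 0.179. Both sets of equal numbers were taken as paired. Deviations from a group mean are not independent, so the pairing of wt with R6/1 striata is not established. The main fits held no term for this pairing and treated the libraries as independent. Only the alternative with replicate number as a block used it. In the fit of the difference of genotype effects, that block was replicate number within each genotype. Between wt and R6/1 retinas, equal numbers gave 0.124, −0.094 and 0.051, and unequal ones ranged from −0.269 to 0.232. Between wt retinas and striata, equal numbers gave −0.026, 0.019 and 0.001. Python 3.11.15 (pandas 2.3.3, numpy 2.4.6, scipy 1.17.1, matplotlib 3.10.9) made the tables and figures.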

Additional observations from a re-analysis of the deposited data

Results flagged for a closer look

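For 13 of the named list genes, the genotype effect differed between tissues in the edgeR test of the difference itself, which 8.24% of all genes passed. The named genes were picked by a small p in the genotype fits of the same libraries, which favours such calls. Their number can therefore not be weighed against that share. With each of the 12 libraries left out in turn, the calls of Kpna2, Mad2l1, Mcm10, Tnfaip3, Ccnd2, Jun and Homer1 held throughout. Those of Cenpa, Cenpb, Rfc5, Junb and Dusp6 were lost in some of these fits, and that of Egr2, which missed the filter on low counts without R6/1 retina 2, held in the others. Without wt striatum 2, 12 of the 13 were called, all but Cenpa. In the test of the difference, the block was replicate number within each genotype, which sets retina beside striatum of the same number. With this block, 0 of 39 centromere genes were called, against 3 without the block. The calls of Cenpa and Cenpb were thus lost with the block. Calls also went from 7 to 4 among spindle genes and from 6 to 5 among replication fork genes. They went from 6 to 7 among activity-induced genes and from 1 to 2 among cell cycle entry genes.

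In the lists of spindle, centromere and replication genes, the log2 effect in the retina minus that in the striatum was −1.13 for Kpna2 (adjusted p = 0.000319), −0.862 for Mad2l1 (adjusted p = 0.000864), −1.27 for Cenpa (adjusted p = 0.0347), −2.04 for Mcm10 (adjusted p = 0.00588) and −0.855 for Tnfaip3 (adjusted p = 0.00477). Each of these fell in R6/1 retinas. Their striatal log2 fold changes were 0.07, 0.18, 0.26, 0.57 and 0.27, and none of them passed the test. Cenpb gave 0.356 (adjusted p = 0.0497) and Rfc5 0.803 (adjusted p = 0.0276), the latter from a fall in the striatum.

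Among cell cycle entry and activity-induced genes, the difference was 1.27 for Ccnd2 (adjusted p = 0.00815), 1.01 for Jun (adjusted p = 0.000438), 1.13 for Junb (adjusted p = 0.0214), 1.09 for Homer1 (adjusted p = 0.0111) and 0.762 for Dusp6 (adjusted p = 0.0257). Egr2 had a fitted difference of 5.44 (adjusted p = 0.00213). That value rests on 1 count in the 3 wt retinas and 16 in the 3 R6/1 retinas, a ratio of 13.3 with an exact 95% counting interval of 2.07 to 558 that covers counting error only.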

How the results depend on the processing

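The tissue differences of the 6 genes kept their direction and their call in all 168 alternative fits, and their genotype values moved by less than the SD between pools in 277 of 282. The exceptions were the differences of genotype effects of Tpx2, Hjurp and Plk5 without wt striatum 2, given in the report, and the retinal values of Hjurp (0.58) and Plk2 (0.13) with library totals. With the same scaling the sign of the striatal value of Plk3 turned.

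Genes called in the retina numbered 3691, 2109 at an adjusted p under 0.01, and 2517 to 3583 with a library left out. The striatum was less stable. Its 242 calls became 982 with DESeq2, 429 with library totals, 1300 in 1 fit of all 12 libraries, 7 at an adjusted p under 0.01 and 1 to 1916 with a library left out (1 without wt replicate 1, 1916 without wt replicate 2, 5 without wt replicate 3, 6 without R6/1 replicate 1 and 27 without R6/1 replicate 3). The 1296 genes that differed between tissues in their genotype effect became 442 at an adjusted p under 0.01 and 767 to 1999 with a library left out. Listed proliferation genes went from 22 to 44 in the retina with library totals (17 to 23 with a library left out). In the striatum 1 became 3 with library totals, 7 in 1 fit of all 12 libraries, 0 at an adjusted p under 0.01 and 0 to 7 with a library left out (7 without wt replicate 2). The cause was not tested.

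With the replicate block, striatal calls numbered 1663 and listed proliferation genes 6, and the block changed no tissue call of the 6 genes. Named list genes kept their call in 298 of 322 fits and lost it in 24, always in the same direction. Genes at low levels such as Tpx2, Plk1 and Plk3 rest on few counts, and 3 pools per group limit every comparison.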

Other observations

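Of 33 regulators of cell cycle entry tested in the retina, 10 (30.3%) were called, against 22.3% of all genes. With TMM scaling 6 were higher and 4 lower, and with library totals 12 were higher and 3 lower. The cyclin gene Ccnd2 rose from 3.91 ± 0.85 to 8.50 ± 1.77 CPM (log2 fold change 1.16 ± 0.19, adjusted p = 0.000256), and the transcription factor gene E2f3 (0.52 ± 0.10, adjusted p = 0.000858) and the cyclin-dependent kinase inhibitor gene Cdkn1b (0.28 ± 0.06, adjusted p = 0.00245) rose as well. The phosphatase gene Cdc25c fell from 1.92 ± 0.41 to 0.432 ± 0.193 CPM (−2.10 ± 0.38, adjusted p = 0.000608). In the striatum edgeR called none of 34, with 4 at an unadjusted p under 0.05, while DESeq2 called 2 and the replicate block 1. Among 15 targets of p53, the apoptosis gene Bbc3 was called in the retina (0.504 ± 0.376 to 1.69 ± 0.68 CPM; 1.78 ± 0.47, adjusted p = 0.0145), and its call was lost without wt retina 2, wt retina 3 or R6/1 retina 1 (adjusted p up to 0.0707). With library totals 4 of the 15 were called, all higher. In the striatum edgeR called none of the 15, with 4 at an unadjusted p under 0.05, and DESeq2 called 1.

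Genes of astrocytes and Müller glia summed to 3855 to 4334 CPM in wt and 3379 to 3699 CPM in R6/1 retinas (4 of 12 rose and 1 fell), and to 7496 to 8786 CPM in wt and 6010 to 6522 CPM in R6/1 striata (1 of 12 fell; 3 fell by DESeq2, and with the replicate block 4 fell and 1 rose). Oligodendrocyte genes summed to 6818 to 7601 CPM in wt and 6206 to 6782 CPM in R6/1 striata, with none of 12 called by edgeR, 5 at an unadjusted p under 0.05 and 1 called by DESeq2. In the retina edgeR called 1 of the 8 tested (12.5%, against 22.3% of all genes), which was higher in R6/1 mice. Endothelial and pericyte genes summed to 438 to 449 CPM in wt and 417 to 441 CPM in R6/1 striata, and to 432 to 497 CPM in wt and 437 to 499 CPM in R6/1 retinas.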
